A study of Mus musculus with 4 samples.

Results

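Foxr2 and 9 genes of the MYC-MAX network were read from a table of 53465 mouse genes. The 9 were Myc, Max, Mga, Mlx, Mnt, Mxd1, Mxd3, Mxd4 and Mxi1. Foxr2 was chosen by its counts, for their large fall in the extravasated libraries, so its difference is given as a description with no test, and the other 9 were taken by name as the network. All 10 genes had reads in every library and passed the expression filter, which kept 12320 genes. The cells were B16-F10, a pigmented mouse melanoma line, made fluorescent, infused into zebrafish and later grown in IMDM with 10% FBS, and polyA RNA was sequenced. The labels mark 2 libraries as extravasated, from cells that had left the vessels, and 2 as not extravasated, which the design text names as the control. The growth text tells of extravasation in clusters, by a process called angiopellosis, for every library, so the grouping here follows the field for extravasation and the name of the source. Nothing in the labels says that the libraries of a group were separate cultures or clones. Their p-values therefore measure the spread between these libraries, which may be technical. The number in the titles differs between the groups and cannot be told apart from them.

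Library totals ran from 11705904 to 19674733 counts. Melanocyte markers summed to 23904 to 30903 CPM (counts scaled to a common library size with TMM factors) in the 4 libraries, and all 7 had reads in every library. Endothelial markers summed to 0.0868 to 0.984 CPM, with Cdh5, Kdr, Tek and Tie1 at 0. Leukocyte markers summed to 3.63 to 4.69 CPM, nearly all of it Cd68, with Ptprc, Adgre1 and Tyrobp at 0. Fibroblast markers summed to 8.51 and 8.85 CPM in the controls and to 10.8 and 11.3 CPM in the extravasated libraries, with Dcn, Lum and Thy1 at 0; the part of other cells in the results was not tested. Fold changes of all genes followed the base composition of their transcripts, with a Spearman rho of 0.73 with GC content over 12295 nuclear genes, which are not independent replicates. Values are therefore given from the plain fit and, for the 10 genes and the other genes named, from a fit with an offset for GC content and length, which brought rho to 0.02.

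MYC is a basic helix-loop-helix leucine zipper factor that binds DNA as a dimer with MAX, most tightly at the E-box CACGTG, and drives growth, ribosome production and the cell cycle. The MXD proteins, MXI1, MNT and MGA also pair with MAX and repress from the same sites, and MNT and some MXD proteins can pair with MLX, which is the partner of the glucose-sensing Mondo factors. FOXR2 is a forkhead protein, barely expressed in most adult tissues, which binds and stabilises MYC and acts as an oncogene in some human tumours.

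Promoter windows from RefSeq (GRCm38.p6) were available for 9 of the 10 genes, all but Myc, each taken as the 250 bases before the annotated start. There were 11 windows, since Mxi1 had several starts. Windows are shown for Foxr2, the gene of the 10 with the largest difference, and for Mlx and Mxd4, the network genes whose call was the same in both fits. They read 5′ to 3′ on the strand of the gene, and capitals mark the E-box CACGTG, which is its own reverse complement.
Foxr2, chrX:153118538-153118787, plus strand: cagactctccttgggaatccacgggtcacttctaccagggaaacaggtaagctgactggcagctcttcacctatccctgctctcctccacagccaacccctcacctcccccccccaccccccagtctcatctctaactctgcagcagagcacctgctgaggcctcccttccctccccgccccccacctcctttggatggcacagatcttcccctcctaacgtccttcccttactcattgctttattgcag
Mlx, chr11:101087040-101087289, plus strand: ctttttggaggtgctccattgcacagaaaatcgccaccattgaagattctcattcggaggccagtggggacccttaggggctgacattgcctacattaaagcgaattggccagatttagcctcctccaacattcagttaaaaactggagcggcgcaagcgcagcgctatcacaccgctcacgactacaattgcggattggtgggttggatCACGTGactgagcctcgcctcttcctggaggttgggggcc
Mxd4, chr5:34187711-34187960, minus strand: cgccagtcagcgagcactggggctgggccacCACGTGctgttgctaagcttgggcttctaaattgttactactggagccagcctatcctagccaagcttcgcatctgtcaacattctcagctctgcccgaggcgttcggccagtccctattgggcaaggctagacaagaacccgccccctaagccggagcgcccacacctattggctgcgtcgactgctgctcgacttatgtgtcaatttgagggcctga
The Foxr2 window held no CACGTG. Mlx had it 40 bases and Mxd4 219 bases before the start, and Mnt, whose window is not shown, 123 bases before it. These 3 were the members with the motif, counted by gene. Counted by window, 6.02% of 32851 promoter windows of this length held it. Of these 3 genes, Mlx was higher, Mxd4 lower and Mnt not called in the extravasated libraries.

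Foxr2 (ENSMUSG00000071665.10, GRCm38 chromosome X, 153118786 to 153132861, plus strand) stood at 110.4 and 118.6 CPM in the controls, and the extravasated libraries had 22.5 and 18.9 CPM. The groups were far apart, and the libraries within each were close. These values rest on 1272 and 2049 counts in the controls and 297 and 359 counts in the extravasated libraries. The fitted log2 fold change was -2.47 ± 0.152 (SE), a 5.54-fold lower level and the 126th lowest value of the 12320 genes tested. Foxr2 has a transcript of 3210 nucleotides with 42.0% GC, and 9.63% of tested genes had a lower GC content. For a transcript of that kind the smooth over all genes gave a log2 difference of -1.08 between the groups. With the offset the log2 fold change of Foxr2 was -1.41 ± 0.169 (SE), a 2.66-fold lower level. The offset-adjusted levels were 68.9 and 90.2 CPM in the controls and 32.6 and 27.5 CPM in the extravasated libraries, still without overlap. In bulk RNA a lower level in every cell and fewer cells with the transcript cannot be told apart.

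**Figure D1:**
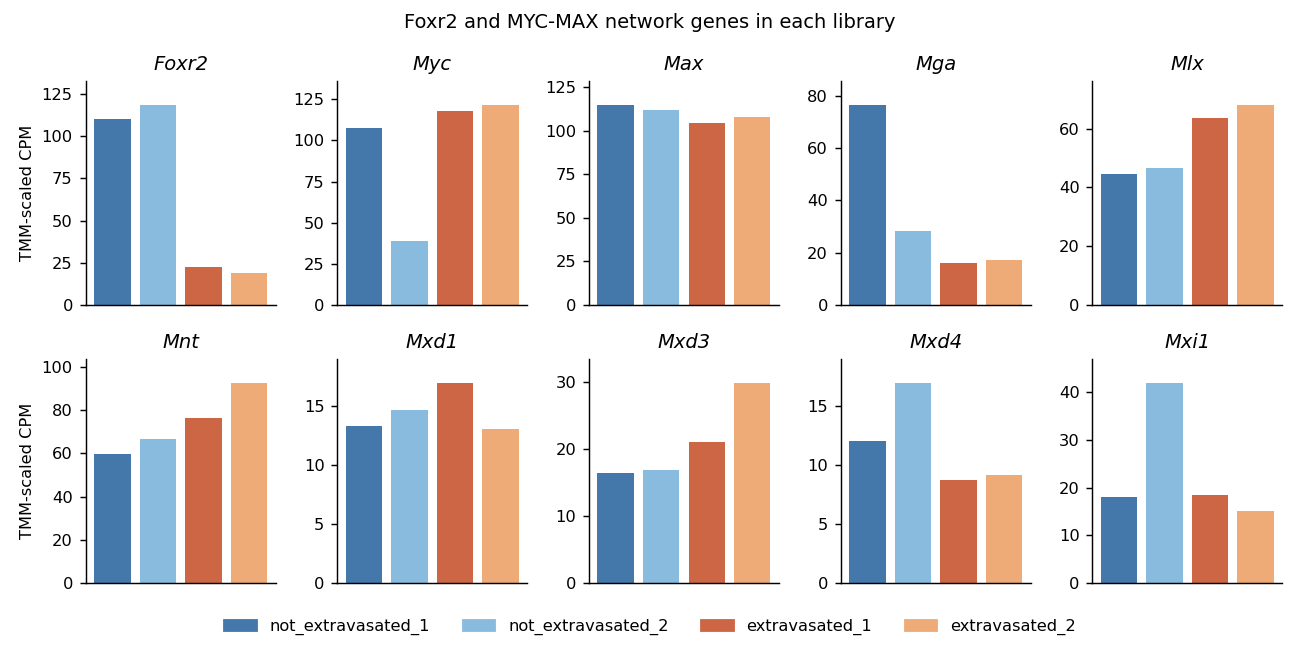
Level of each of the 10 genes in the 4 libraries, as TMM-scaled CPM, 1 bar per library and a separate linear axis from 0 for each gene. Foxr2 stands at 110.4 and 118.6 CPM in the controls and at 22.5 and 18.9 CPM in the extravasated libraries, while Max lies between 104.6 and 114.9 CPM in all 4.

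The genes next to Foxr2 on chromosome X had much lower levels than Foxr2, length taken into account. Per kilobase of transcript, Foxr2 averaged 35.7 CPM in the controls and 6.45 CPM in the extravasated libraries. Rragb, a Rag GTPase of the amino acid signal to mTORC1, begins 7.12 kb beyond the end of Foxr2 and averaged 0.935 and 0.678 CPM per kilobase. Its log2 fold change was -0.42 (edgeR quasi-likelihood test, adjusted p = 0.476) and 0.40 with the offset (adjusted p = 0.569), neither of which passed. Mageh1, a MAGE family gene, lies 81.2 kb before Foxr2 and averaged 0.667 and 0.672 CPM per kilobase; its log2 fold change was -0.05 (adjusted p = 0.95) and 0.06 with the offset (adjusted p = 0.942). Of 21 protein-coding genes within 1000 kb, 14 had reads and 12 were tested. In the plain fit 1 of the 12 was higher and 2 were lower, where 19.1% of all genes were called higher and 25.9% lower. With the offset 8.24% of all genes were called higher and 5.80% lower. Gpr143, a melanosomal receptor, stood at 27.8 and 23.3 CPM in the controls and 42.0 and 47.3 CPM in the extravasated libraries and rose in both fits (0.81 and 0.73, adjusted p = 0.00694 and 0.0248). Tspyl2 stood at 64.1 and 88.8 CPM against 55.3 and 48.4 CPM and fell in both fits (-0.56 and -0.80, adjusted p = 0.0384 and 0.0265). Kantr, with 15 and 26 counts against 5 and 3, fell in the plain fit (-2.44, adjusted p = 0.0132) and was not called with the offset (-1.26, adjusted p = 0.225). Nbdy was called with the offset alone (0.33 and 1.19, adjusted p = 0.38 and 0.0224). The offset calls of Gpr143 and Nbdy were lost when extravasated_2 was left out. Values of the called neighbours with a library left out are not given here.

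**Figure D2:**
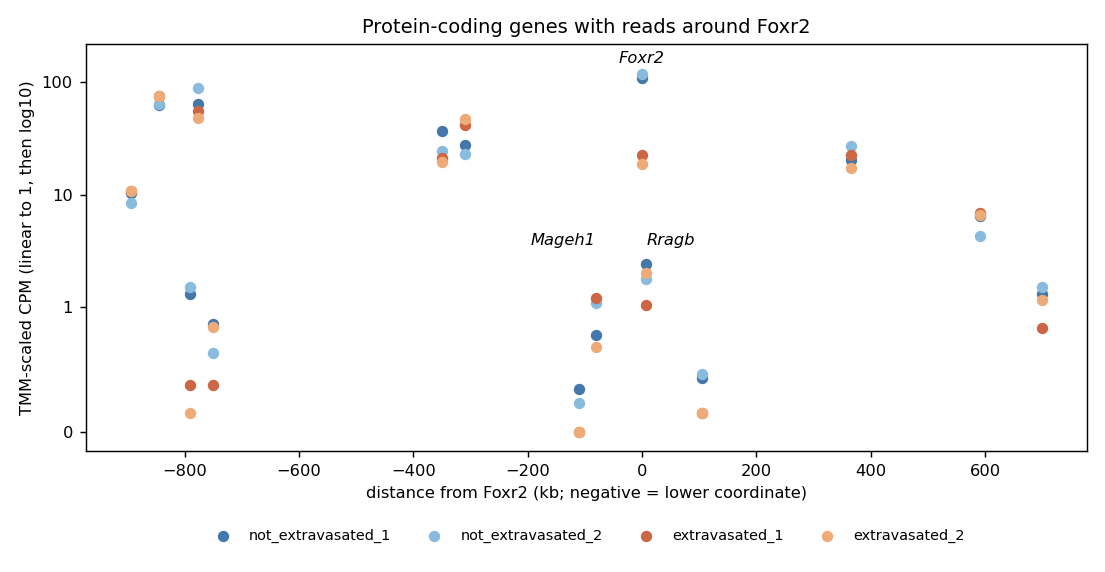
Level (TMM-scaled CPM, linear up to 1 and logarithmic above) of the protein-coding genes with reads within 1000 kb of Foxr2, against their distance from it in kb; each point is 1 library. Rragb and Mageh1, the nearest genes with reads in every library, lie at 0.684 to 2.43 CPM with overlapping groups, while the 2 groups of Foxr2 points are apart.

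Among 44 forkhead genes, 24 had reads and 18 were tested, Foxr2 included, and 14 had a mean of at least 10 CPM. Foxm1, which drives mitotic genes, stood at 293.1 and 276.6 CPM in the controls and 404.8 and 419.6 CPM in the extravasated libraries. Its log2 fold change of 0.53 passed (adjusted p = 0.00829), and the offset gave 0.34, not called (adjusted p = 0.0767). In the plain fit 4 of the 18 were higher and 7 lower, Foxr2 among the lower, where 19.1% of all genes were called higher and 25.9% lower. The lower ones included Foxn2 (log2 fold change -1.55, and -0.26 with the offset), Foxn3 (-1.36 and -0.43), Foxp1 (-0.84 and 0.24), Foxj3 (-0.83 and -0.14) and Foxo1 (-0.74 and -0.12). Foxk1 (0.56 and 0.50), Foxp4 (0.51 and 0.04) and Foxo4 (0.50 and 0.17) were higher in the plain fit. Foxk2 (0.25 and 0.17), Foxj2 (0.04 and -0.13), Foxc1 (0.02 and -0.14) and Foxo3 (-0.34 and -0.30) passed in neither. Without not_extravasated_1 Foxo3 passed, with -0.54 in the plain fit (adjusted p = 0.00711) and -0.55 with the offset (adjusted p = 0.00628). Without extravasated_2 the plain calls of Foxm1 (0.55), Foxj3 (-0.63), Foxp1 (-0.78), Foxo1 (-0.44), Foxk1 (0.55), Foxp4 (0.42) and Foxo4 (0.51) were lost. Foxo1 (-0.96), Foxk1 (0.70) and Foxo4 (0.62) also lost theirs without extravasated_1, Foxo1 (-0.56) and Foxk1 (0.37) without not_extravasated_2, and Foxo4 (0.32) without not_extravasated_1. With the offset no tested forkhead gene other than Foxr2 was called, where 8.24% of all genes were called higher and 5.80% lower. Foxr2 was chosen for its fall, so its place among the called genes in either fit is not a test result. Foxr1, the closest relative of Foxr2, had 0 counts in every library.

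The genes whose pattern over the 4 libraries was most like that of Foxr2 were Zc3h7a, Ints6l and Ppp1r9a. Likeness was the root mean square difference of log2 CPM deviations from each gene's own mean, which was 0.100 for Zc3h7a, 0.117 for Ints6l and 0.117 for Ppp1r9a. Zc3h7a encodes a zinc finger protein, and stood at 82.0 and 95.3 CPM in the controls and 19.8 and 14.1 CPM in the extravasated libraries. Ppp1r9a, which encodes the actin-binding protein neurabin, stood at 88.1 and 78.5 CPM against 16.5 and 12.3 CPM. Ints6l, a relative of an Integrator subunit, stood at 18.6 and 17.8 CPM against 3.63 and 3.48 CPM. These 3 also have GC-poor transcripts (43.6%, 45.6% and 43.8% GC for Zc3h7a, Ppp1r9a and Ints6l), against a median of 50.3% over tested genes. For Zc3h7a the log2 fold change was -2.39, and -1.45 with the offset. Ppp1r9a had -2.54 and -1.44, and Ints6l had -2.35 and -1.42. Being picked for their likeness to Foxr2, they are given without a test, and what made the patterns alike was not tested.

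Of the 9 network genes, Mxd3 and Mlx were called higher and Mxd4 and Mga lower in extravasated cells, and 5 did not pass. In the same plain fit 45.1% of all genes tested were called, so 4 of 9 is a share like that of the genome. With the offset Mlx was higher and Mxd4 lower, and the other 7 did not pass, against 14.0% of all genes called. The groups did not overlap for 7 of the 9, 4 higher and 3 lower, which was the case for 76.3% of all genes tested, 37.3% higher and 39.0% lower. With the offset, the calls of Mlx and Mxd4 and of each pathway gene described below as called in both fits were lost when either extravasated library was left out. The median log2 fold change of the 9 was 0.09 in both fits, against -0.02 and 0.04 for all genes.

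**Figure D3:**
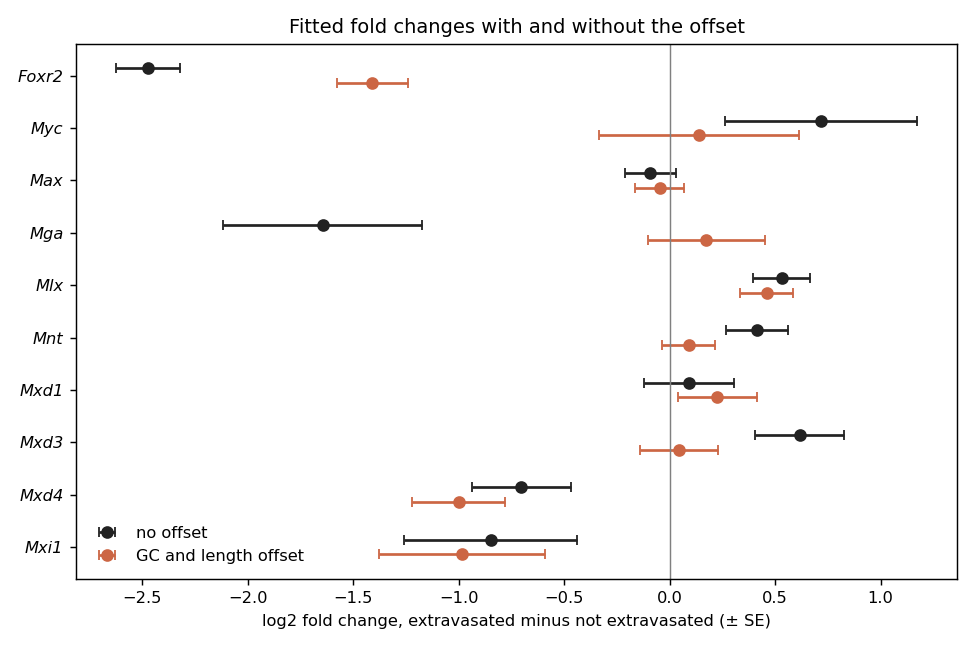
Fitted log2 fold change of each gene, extravasated minus not extravasated, with its standard error as the bar, from the plain fit (black) and from the fit with the GC and length offset (orange). Mga moves from -1.64 to 0.17, while Mlx (0.53 and 0.46) and Mxd4 (-0.70 and -1.0001) keep their side.

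Per kilobase of the transcripts used here, Max and Myc were the most abundant members in the controls and again in the extravasated libraries. In the controls they averaged 58.4 and 53.6 CPM per kilobase, followed by Foxr2 at 35.7, Mlx at 23.2, Mnt at 13.8, Mxi1 at 12.8, Mxd3 at 12.5, Mga at 3.76, Mxd4 at 3.75 and Mxd1 at 2.99. In the extravasated libraries Myc averaged 87.7, Max 54.8, Mlx 33.5, Mxd3 19.1, Mnt 18.4, Mxi1 7.16, Foxr2 6.45, Mxd1 3.20, Mxd4 2.31 and Mga 1.20 CPM per kilobase. The order of Myc, Max and Foxr2 in the controls depended on the library, since Myc stood at 78.8 and 28.4 and Foxr2 at 34.4 and 36.9 CPM per kilobase. The control values of Mxi1, 7.68 and 17.9, spanned those of Mnt (13.0 and 14.6) and Mxd3 (12.3 and 12.7), which did not overlap each other. Those of Mga, 5.50 and 2.03, spanned those of Mxd4 and Mxd1. The Myc value uses an annotated transcript of 1365 nucleotides that is nearly all coding sequence, and the longest one has 2338. With that length the Myc mean would fall below Foxr2 in the controls and below Max in the extravasated libraries.

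Max (ENSMUSG00000059436.13, chromosome 12, 76937269 to 76962201), the obligate partner of MYC, varied little. It stood at 114.9 and 111.8 CPM in the controls and 104.6 and 108.0 CPM in the extravasated libraries. The extravasated values were a little lower in both libraries, with a log2 fold change of -0.09 ± 0.121 (SE; in edgeR the adjusted p was 0.564) and -0.05 with the offset (adjusted p = 0.81).

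Myc (ENSMUSG00000022346.15, chromosome 15, 61985391 to 61990374) stood at 107.5 CPM in not_extravasated_1 and 38.7 CPM in not_extravasated_2, and at 117.9 and 121.6 CPM in the extravasated libraries. A single control library was low, and the other lay close to the extravasated ones. The log2 fold change was 0.72 ± 0.455 (SE; in edgeR the adjusted p was 0.251) and 0.14 with the offset (adjusted p = 0.869). It was 1.63 without not_extravasated_1 (adjusted p = 3.52e-15) and 0.16 without not_extravasated_2 (adjusted p = 0.437). With the offset, those values were 1.08 (adjusted p = 9.23e-06) and -0.43 (adjusted p = 0.0305), so both passed in opposite directions. These offset values rest on the Myc transcript of 1365 nucleotides. On longest transcripts the offset fit of all libraries gave 0.40 for Myc (adjusted p = 0.6), and fits without a library were not run on them. With the Myc transcript of 1365 nucleotides, the per-kilobase ratio of Myc to Max was 1.33 and 0.493 in the controls and 1.60 in each extravasated library. It would be lower in every library with the longest Myc transcript. The difference between the 2 control libraries was 2.77-fold for Myc, and 1.81% of tested genes differed by more.

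Mxi1 (ENSMUSG00000025025.13, chromosome 19, 53310518 to 53375810) encodes a MAX-binding repressor of MYC targets and is known as a gene induced by hypoxia. It stood at 18.0 CPM in not_extravasated_1 and 41.8 CPM in not_extravasated_2, and at 18.4 and 15.1 CPM in the extravasated libraries. The control library with the low Myc level was the one with the high Mxi1 level. The log2 fold change of Mxi1 was -0.85 ± 0.409 (SE; in edgeR the adjusted p was 0.147) and -0.98 with the offset (adjusted p = 0.152). Without not_extravasated_2 it was -0.10 (adjusted p = 0.756), and without not_extravasated_1 it was -1.33 (adjusted p = 6.02e-09). With a term for the kind of title suffix Mxi1 was called, at -0.73 (adjusted p = 0.00829), and with no expression filter at -0.84 (adjusted p = 0.000476). With the offset on the longest Mxi1 transcript, of 5036 in place of 2340 nucleotides, it was -0.20 (adjusted p = 0.77). With transcripts of 2340 nucleotides for Mxi1 and 1365 for Myc, the per-kilobase ratio of Mxi1 to Myc was 0.0975 and 0.630 in the controls. In the extravasated libraries it was 0.0910 and 0.0725.

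Genes known to be induced by hypoxia were set beside these values after the library difference had been seen. All 6 of them (Bnip3, Vegfa, Pdk1, Ndrg1, Slc2a1 and Car9) were higher in not_extravasated_2 than in not_extravasated_1, by 1.27-fold to 3.84-fold. Of all 12320 genes tested, 5074 were higher in that library. Bnip3, a mitophagy receptor, stood at 33.3 and 127.9 CPM in the controls and 10.8 and 9.53 CPM in the extravasated libraries. Pdk1, a kinase that inhibits pyruvate dehydrogenase, stood at 58.5 and 96.7 CPM against 26.5 and 22.0 CPM. Slc2a1, the main glucose transporter, stood at 49.6 and 66.4 CPM against 52.5 and 59.5 CPM. Car9 stood at 4.86 and 6.19 CPM against 6.21 and 6.90 CPM. What part a difference in oxygen or culture had in the Myc and Mxi1 values was not tested.

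**Figure D4:**
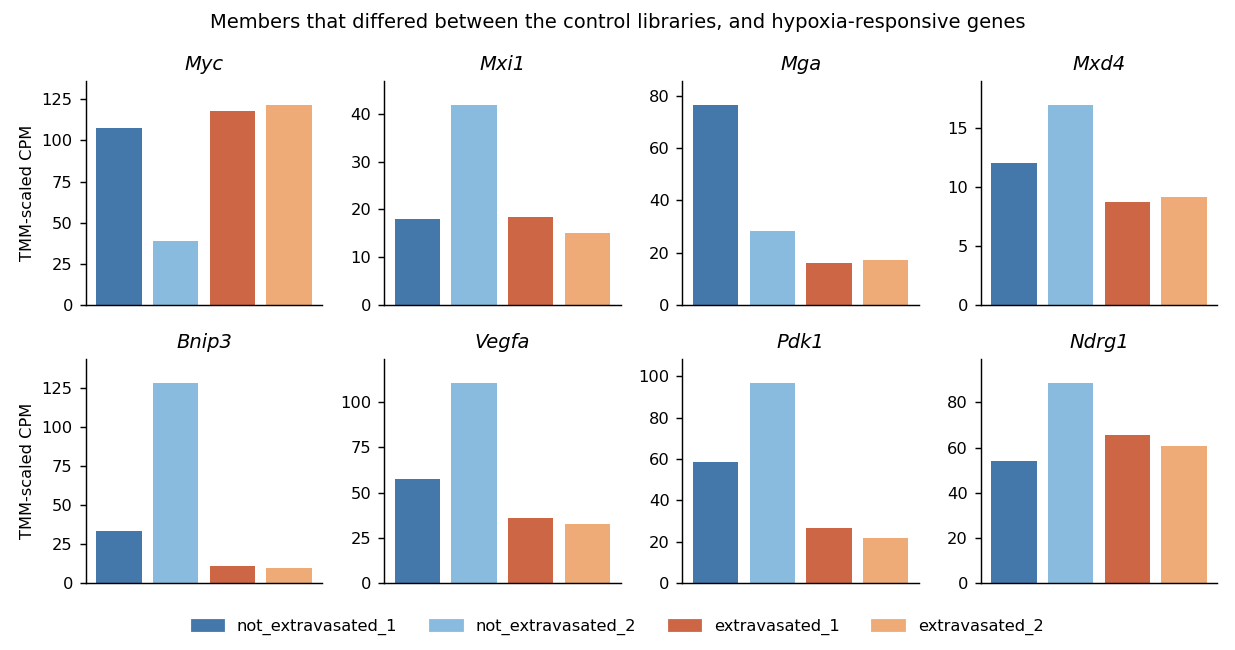
Level (TMM-scaled CPM, bars from 0, 1 bar per library) of 4 network genes in the upper row and 4 hypoxia-responsive genes in the lower row. Those of the lower row were chosen after the values were seen. Slc2a1 and Car9, which differed less between the controls, are not shown. In not_extravasated_2 Myc is low at 38.7 CPM while Mxi1 (41.8 CPM), Bnip3 (127.9 CPM), Vegfa (110.5 CPM), Pdk1 (96.7 CPM) and Ndrg1 (88.5 CPM) have their highest values.

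Mga (ENSMUSG00000033943.15, chromosome 2, 119897228 to 119969581) encodes a very large MAX partner that anchors a Polycomb complex, PRC1.6. It stood at 76.6 CPM in not_extravasated_1 and 28.3 CPM in not_extravasated_2, and at 16.2 and 17.1 CPM in the extravasated libraries. Both controls were above both extravasated libraries, and they were far from each other. In the plain fit Mga fell 3.13-fold, with a log2 fold change of -1.64 ± 0.471 (SE; in edgeR the adjusted p was 0.0382). That call was lost with RLE in place of TMM factors (-1.62, adjusted p = 0.0823) and with no expression filter (-1.63, adjusted p = 0.0729). With the offset the value was 0.17 ± 0.277 (SE; adjusted p = 0.705). Its transcript of 13931 nucleotides is longer than 99.6% of those tested and has 42.2% GC, and the smooth gave a log2 difference of -1.72 for such a transcript. Offset-adjusted levels were 34.9 and 19.1 CPM in the controls and 28.7 and 31.9 CPM in the extravasated libraries, which overlapped. Leaving out extravasated_1 or extravasated_2 gave -1.50 and -1.63 in the plain fit, and neither passed (adjusted p = 0.185 and 0.195). With the offset, leaving out not_extravasated_1 gave 0.66, which passed as a rise (adjusted p = 0.0101).

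The partners of MGA in PRC1.6 were followed through 11 tested genes. In the plain fit 2 of them were called higher and 7 lower, and their median log2 fold change was -0.64, where 19.1% of all genes were called higher and 25.9% lower. Rybp, a PRC1 subunit, stood at 49.0 and 49.7 CPM in the controls and 22.9 CPM in each extravasated library, a log2 fold change of -1.11 (adjusted p = 0.00156). Cbx3, a heterochromatin protein, had -1.39 and Tfdp2, a dimer partner of E2F factors, had -1.28. With the offset these 3 were not called, at -0.10, -0.34 and -0.31. L3mbtl2, a methyl-lysine reader of the complex, went the other way, from 146.5 and 112.0 CPM to 242.9 and 260.5 CPM, and rose in both fits with log2 fold changes of 0.96 (adjusted p = 0.00304) and 0.66 (adjusted p = 0.0281). With the offset 1 of the 11 rose and 1 fell, against 8.24% and 5.80% of all genes, and the median was -0.06. Of 14 germ cell genes that this complex silences, 6 had reads and 2 were tested, of which Tdrkh fell in the plain fit (-1.16) and was not called with the offset (-0.08, adjusted p = 0.749).

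Mlx (ENSMUSG00000017801.15, chromosome 11, 101087277 to 101092207) encodes the MAX-like partner of the Mondo factors and of some MXD proteins. It stood at 44.4 and 46.6 CPM in the controls and 63.5 and 68.1 CPM in the extravasated libraries. The libraries of each group were close and the groups apart. Mlx rose with a log2 fold change of 0.53 ± 0.135 (SE; in edgeR the adjusted p was 0.0158), and with the offset of 0.46 ± 0.125 (SE; adjusted p = 0.0489). With the offset on the longest transcripts the value was 0.41, and the adjusted p of 0.0662 missed the threshold. Mlx overlaps Psmc3ip, which lies on the opposite strand and had 192 and 389 counts in the controls and 310 and 390 counts in the extravasated libraries; the strand setting of the counting is not given in the sources used here, so reads of the pair may not be told apart. Without extravasated_2 the plain value was 0.52 and did not pass (adjusted p = 0.103), and with the offset it was 0.56 without extravasated_1 and 0.40 without extravasated_2 (adjusted p = 0.164 and 0.331).

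The Mondo branch itself gave no common direction. Mlxip, which encodes MondoA, and Usf1, another E-box factor, were not called, while Usf2 rose in the plain fit (0.45, adjusted p = 0.0381) and had 0.01 with the offset. The Usf2 call was lost without not_extravasated_1 (0.30), extravasated_1 (0.50) or extravasated_2 (0.54). Mycn, Mycl and Mlxipl did not pass the expression filter. Of 7 tested target genes of MondoA and ChREBP, 2 rose and 2 fell in the plain fit, with 19.1% of all genes called higher and 25.9% lower. Txnip, the inhibitor of glucose uptake that MondoA activates most directly, stood at 33.0 and 55.2 CPM in the controls and 15.9 and 17.6 CPM in the extravasated libraries. It fell in both fits, with log2 fold changes of -1.40 (adjusted p = 0.00602) and -1.15 (adjusted p = 0.0298). Without extravasated_1 or extravasated_2 the plain values of Txnip were -1.24 and -1.44 and did not pass (adjusted p = 0.0849 and 0.0836). Gpd1, glycerol-3-phosphate dehydrogenase, rose in both, with 1.02 (adjusted p = 0.00333) and 0.62 (adjusted p = 0.0388). Fasn, fatty acid synthase, rose in the plain fit with 0.43 and had 0.49 with the offset (adjusted p = 0.0677). Me1, malic enzyme, fell in the plain fit with -0.51 and had -0.06 with the offset. Without extravasated_2 Fasn (0.37) and Me1 (-0.47) were not called, and Me1 was not called without extravasated_1 (-0.42) or not_extravasated_2 (-0.24) either.

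Mxd4 (ENSMUSG00000037235.13, chromosome 5, 34173883 to 34187720), a MAX-binding repressor found in cells leaving the cell cycle, stood at 12.1 and 17.0 CPM in the controls and 8.71 and 9.16 CPM in the extravasated libraries. These are 139 and 293 counts against 115 and 174 counts, and the groups did not overlap. Mxd4 fell with a log2 fold change of -0.70 ± 0.235 (SE; in edgeR the adjusted p was 0.042). DESeq2 gave -0.68, which did not pass (adjusted p = 0.0666). With the offset the value was -1.0001 ± 0.221 (SE; adjusted p = 0.027), since its transcript has 55.6% GC. Without not_extravasated_2 the plain value was -0.42 and did not pass (adjusted p = 0.182). Leaving out extravasated_1 gave -0.58 and leaving out extravasated_2 gave -0.71, neither of which passed (adjusted p = 0.241 and 0.201). With the offset these were -0.98 and -1.001 (adjusted p = 0.171 and 0.214).

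Mxd3 (ENSMUSG00000021485.14, chromosome 13, 55325168 to 55329823), a MAX-binding protein known from proliferating cells in S phase, stood at 16.3 and 16.8 CPM in the controls and 21.0 and 29.7 CPM in the extravasated libraries. It rose in the plain fit with a log2 fold change of 0.62 ± 0.212 (SE; in edgeR the adjusted p was 0.046). That call was lost with unscaled totals (0.56, adjusted p = 0.0671) and with limma-voom (0.61, adjusted p = 0.0533). With the offset the value was 0.04 (adjusted p = 0.89); its transcript has 57.0% GC. Mxd3 overlaps Prelid1 on the opposite strand, which had 3386 and 5286 counts in the controls and 5176 and 8268 counts in the extravasated libraries, so its value is uncertain in the same way as that of Mlx. Without extravasated_2 the plain value was 0.38 and did not pass (adjusted p = 0.315).

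Mnt (ENSMUSG00000000282.12, chromosome 11, 74830920 to 74845725) is the most widely expressed of the MAX-binding repressors. It stood at 59.9 and 66.8 CPM in the controls and 76.5 and 92.5 CPM in the extravasated libraries. The groups did not overlap, and the log2 fold change of 0.41 ± 0.149 (SE; in edgeR the adjusted p was 0.0528) missed the threshold. It was 0.50 without not_extravasated_2 and 0.64 without extravasated_1, and both passed (adjusted p = 0.0118 and 0.0489). With a term for the kind of title suffix it was 0.41 and passed (adjusted p = 0.0308). It also passed with RLE in place of TMM factors (0.44, adjusted p = 0.0426) and with no expression filter (0.42, adjusted p = 0.0243). With the offset it was 0.09 (adjusted p = 0.662). Mxd1 (ENSMUSG00000001156.9, chromosome 6, 86647042 to 86669161), a repressor that replaces MYC at E-boxes as cells differentiate, stood at 13.3 and 14.6 CPM in the controls and 16.9 and 13.0 CPM in the extravasated libraries, which overlapped. Its log2 fold change was 0.09 ± 0.211 (SE; in edgeR the adjusted p was 0.747) and 0.23 with the offset (adjusted p = 0.447). Summed per kilobase, Mnt, Mxi1, Mxd1, Mxd3 and Mxd4 stood at 39.0 and 52.6 CPM in the controls and 46.2 and 54.2 CPM in the extravasated libraries, with overlap.

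Genes that set the stability of the MYC protein moved both ways. Of 20 tested, 7 rose and 7 fell in the plain fit, and 2 rose and 3 fell with the offset, against 19.1% and 25.9% of all genes, and 8.24% and 5.80% with the offset. Huwe1, a ubiquitin ligase with MYC among its substrates, stood at 378.8 and 325.4 CPM in the controls and 142.2 and 107.0 CPM in the extravasated libraries, with log2 fold changes of -1.50 (adjusted p = 0.00104) and -0.51 with the offset (adjusted p = 0.0368). Usp37, a deubiquitinase of MYC, fell with -1.62 (adjusted p = 0.000767) and -0.58 (adjusted p = 0.0361). Gsk3b, the kinase that marks MYC for degradation, fell in the plain fit with -1.16 and was not called with the offset (-0.22, adjusted p = 0.33). The call of Usp37 ended on the longest transcripts (-0.40, adjusted p = 0.123).

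Among 19 cofactors of MYC, 8 rose and 3 fell in the plain fit, and 0 rose and 3 fell with the offset. Over all genes the shares called higher and lower were 19.1% and 25.9%, and 8.24% and 5.80% with the offset, which also serve the corepressors below. The fallers named by the rule were Mycbp2, a ubiquitin ligase that binds MYC (-1.94, and -0.82 with the offset), Bptf, a chromatin remodelling subunit (-1.46 and -0.75), and Ep300, an acetyltransferase (-1.08 and -0.69). All 3 passed in both fits, with offset-fit adjusted p-values of 0.00886, 0.0181 and 0.0204. Kat2a, the acetyltransferase GCN5, rose in the plain fit with 0.81 and did not pass with the offset (0.39, adjusted p = 0.0652). Corepressors that MXD proteins recruit were also mixed, with 3 of 16 higher and 6 lower, and 2 and 2 with the offset. Ncor1, a nuclear corepressor, stood at 390.9 and 381.2 CPM in the controls and 159.2 and 127.7 CPM in the extravasated libraries and fell in both fits (-1.43 and -0.75, adjusted p = 0.000776 and 0.0109). Arid4a, which binds the SIN3 complex, fell in both fits as well (-1.91 and -0.89, adjusted p = 0.00273 and 0.0432). Sin3a, the scaffold that holds the MXD repressors' complex, had -0.82 (adjusted p = 0.00585) and -0.38 with the offset (adjusted p = 0.0957); without extravasated_2 the plain value was -0.62 and did not pass (adjusted p = 0.0755). Hdac2, its deacetylase, had -0.86 (adjusted p = 0.00204) and -0.13 with the offset.

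MYC target genes, mostly of ribosome biogenesis and nucleotide supply, were higher more often than lower. Of 69 tested, 41 rose and 14 fell in the plain fit, and with the offset 10 rose and 0 fell. Over all genes 19.1% rose and 25.9% fell in the plain fit, and 8.24% and 5.80% with the offset. The median log2 fold change of the list was 0.44, and 0.27 with the offset, against -0.02 and 0.04 for all genes. Bop1, a ribosome assembly factor, stood at 128.3 and 102.7 CPM in the controls and 240.2 and 250.5 CPM in the extravasated libraries and rose in both fits (1.09 and 0.64, adjusted p = 0.00163 and 0.0266). Srm, spermidine synthase, stood at 104.6 and 93.6 CPM against 179.0 and 194.9 CPM, with 0.92 (adjusted p = 0.00204) and 0.31 with the offset (adjusted p = 0.122). Plk4, the kinase of centriole duplication, went the other way in the plain fit (-1.22) and was not called with the offset (-0.13, adjusted p = 0.528). Without extravasated_2 the median of the list was 0.46 in the plain fit. With the offset it was 0.29 without not_extravasated_1, 0.22 without not_extravasated_2, 0.31 without extravasated_1 and 0.24 without extravasated_2. Most plain calls were lost without extravasated_2, for targets and for all genes. With the offset most calls of targets were lost when either extravasated library was left out, as were most calls over all genes. Without not_extravasated_1 more targets were called with the offset, and more genes in all. Between the control libraries, 52 of the 69 were lower in not_extravasated_2, the library with the low Myc level, than in not_extravasated_1, as were 58.8% of all genes. Over all 12320 genes tested, 5074 were higher in not_extravasated_2 than in not_extravasated_1. Of the 6 tested genes in the list that MYC represses, 5 were higher there too, Ndrg1 of the hypoxia genes above included. Cdkn1b, the CDK inhibitor p27, was 1 of them and was the member of that list that fell in the plain fit, from 75.8 and 115.5 CPM to 51.0 and 49.97 CPM (-0.92, adjusted p = 0.0108; 0.12 with the offset, adjusted p = 0.781). Its plain call was lost without extravasated_1 (-0.85) or extravasated_2 (-0.88).

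**Figure D5:**
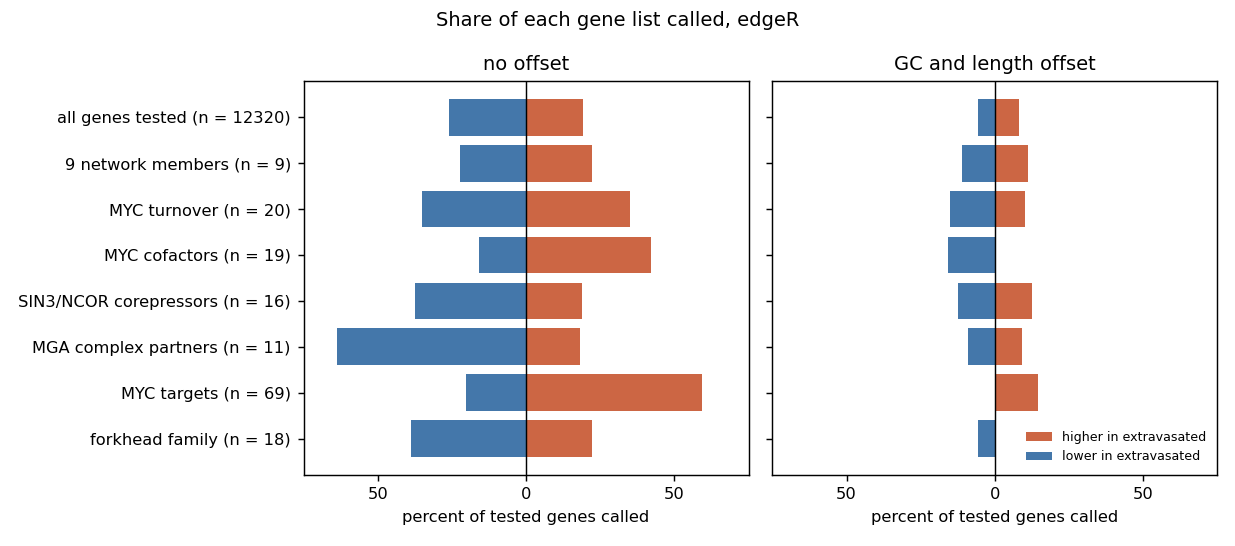
Share of the tested genes of each list that edgeR called higher (orange, to the right) or lower (blue, to the left) in extravasated libraries, in percent, from the plain fit and from the fit with the GC and length offset; n is the number tested. With the offset 8.24% of all genes are higher and 5.80% lower, and of 69 MYC targets 10 are higher and 0 lower. The forkhead family includes Foxr2, which was chosen for its fall.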

How the data were processed

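Polyadenylated RNA of 4 B16-F10 libraries was measured, 2 per group. The authors deposited raw read counts per Ensembl gene as whole numbers without normalization; bcl2fastq 2.18.0.12, STAR 2.5.3a and GRCm38 are the tools and build given per the submitters' processing notes. The counter, its strand setting and the annotation release are not given in the sources used here. Gene symbols came from GENCODE M21, which matched 53360 identifiers without their version; 1 of the 10 genes, Mxi1, differed in version.

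Extravasated and not extravasated libraries were compared with edgeR 4.0.16 (R 4.3.3): filter with a minimum count of 10 and total of 15, TMM factors, and the two-sided quasi-likelihood test with robust dispersion and no covariates. P-values were adjusted by Benjamini-Hochberg over all 12320 genes tested, with a threshold of 0.05. The design had called for the offset fit beside it: deviations of log2 CPM (prior count 2) were smoothed on GC content and log2 length of the principal coding transcript (mgcv 1.9.3, basis size 10), which were known for 99.89% of tested genes. SEs were taken from the fold change and F statistic. Alternatives were RLE factors, unscaled totals, DESeq2 1.42.0, limma-voom (limma 3.58.1), 2 other filters, a title suffix term, longest transcripts, and each library left out. The code was tested on simulated data.

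Named genes were up to 4 called genes per list with the smallest adjusted p, groups that do not overlap and a mean CPM of 10 or more; forkhead genes of at least 10 CPM; the nearest coding gene with reads in every library on each side of Foxr2; and the 3 genes most like Foxr2. A gene that the rule named is not reported here. Members, lists and rules were chosen with earlier results of these data known. Hypoxia genes and the 4 called neighbours of Foxr2 were chosen after their values were seen. Lists were compiled from general knowledge of the pathways, and Cbx3 and Plk1 are each in 2 of them. Ndrg1, in the list of genes that MYC represses, is also among the hypoxia genes.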

Additional observations from a re-analysis of the deposited data

How the results depend on the processing

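With 2 libraries per group the precision rests on few degrees of freedom, and Mxd4 and Mxd1 also on low counts. Mlx, Mxd4, Mnt and Mxi1 kept their direction under each of the 17 alternatives run, and none of these genes was called under all of them. Max and Mxd1 were called under no alternative.

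The number of the 9 network genes called was 2 higher and 2 lower. It was 3 and 1 with RLE factors, 2 and 1 with DESeq2, 1 and 2 with unscaled totals or limma-voom, 3 and 2 with no expression filter, 2 and 2 with the other filter, 3 and 3 with the title suffix term, 1 and 1 with the GC and length offset, and 0 and 1 with the offset on longest transcripts. With 1 library left out, 0 to 3 were higher and 0 to 3 lower, and with the offset 0 to 3 and 0 to 2. Foxr2 stood at -1.41 with the offset and -1.44 on longest transcripts, and between -2.52 and -1.20 with 1 library left out, with or without the offset.

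With the offset 1015 genes were higher and 714 lower, and on longest transcripts 996 and 673. Leaving out 1 library gave 545 to 2758 higher and 1329 to 3541 lower, and with the offset 0 to 2049 and 2 to 1517. With the offset 10 MYC targets were higher and 0 lower (median 0.27), and on longest transcripts 11 and 0 (median 0.30). Without 1 library 13 to 36 were higher and 6 to 16 lower (median 0.45 to 0.60), and with the offset 0 to 30 and 0 to 1 (median 0.22 to 0.31).

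Among genes called in the plain fit, the direction turned with the offset, and on longest transcripts, for Mga (0.17 and 0.15), Cdkn1b (0.12 and 0.10) and Foxp1 (0.24 and 0.18). Among genes not called it turned in both for Rragb (0.40 and 0.35), Mageh1 (0.064 and 0.015), Foxj2 (-0.13 and -0.14) and Foxc1 (-0.14 and -0.14). On longest transcripts alone it turned for Usf2 (-0.014), Hdac2 (0.18) and Me1 (0.17), and for the medians of the 3 further network genes tested, Mlxip, Usf1 and Usf2 (-0.014), and of the Mondo targets (0.17). With 1 library left out, over fits with and without the offset, log2 fold changes ran from -0.43 to 1.63 for Myc, -2.19 to 0.66 for Mga, -0.17 to 0.94 for Mxd3, -1.19 to 0.61 for Cdkn1b, -0.99 to 0.32 for Foxp1, -0.96 to 0.17 for Foxo1, -0.059 to 0.73 for Foxp4, -0.92 to 0.020 for Hdac2, -0.73 to 0.23 for Me1, -1.12 to 0.024 for Rybp and -0.12 to 0.64 for Usf2. List medians ran from -0.038 to 0.50 for the further network genes, -0.54 to 0.23 for Mondo targets and -0.72 to 0.024 for PRC1.6 partners. Of the named genes, members included, the plain call was lost by 2 without not_extravasated_1, 4 without not_extravasated_2, 9 without extravasated_1 and 17 without extravasated_2. The cause of these moves was not tested. Fits that leave out a library take the spread from the other group and assume that the single library left has the same. No paired analysis was possible because the labels give no replicate numbers and the titles share a letter in 1 library of each group only. The term fitted in its place, for the kind of title suffix (a capital or a small letter), added Mxi1 and Mnt to the called network genes.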
